A study of Mus musculus with 5 samples.

Results

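The CCT chaperonin subunits, the 8 genes Tcp1, Cct2, Cct3, Cct4, Cct5, Cct6a, Cct7 and Cct8, were taken as every probe set whose platform symbol is one of these names. They are 8 of the 18193 genes that a single-symbol probe set names on the array, and all 8 were among the 12081 genes tested. The samples were germinal centre B cells, which divide and mutate their antibody genes after immunization, sorted by flow cytometry from spleens of 12-week-old C57BL/6 littermates 7 days after injection of sheep red blood cells (SRBC). The 3 WT arrays came from mice with Cg1-Cre alone, and the 2 REL arrays from relfl/flCg1-Cre mice. Cg1-Cre makes the recombinase from the immunoglobulin gamma 1 locus, so both groups carry it and deletion is limited to cells that have switched this locus on. The series title gives the REL cells as eGFP+ and the Cg1-Cre cells as eGFP-, so the sort gates also differed between the groups. Whether an array holds 1 animal or a pool is not stated, and the p-values cover no more than the variation among these arrays, part of which may be technical.

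CCT, also called TRiC, is the ATP-driven chaperonin of the cytosol. Its subunits sit side by side in a ring, each at a fixed place, and back-to-back rings enclose a chamber in which actin, tubulin and many propeller-shaped proteins fold. All 8 subunits are needed for the complex, and dividing cells depend on it for the cytoskeleton and for cell cycle regulators such as Cdc20. In the ring, Cct2, Cct4, Cct5 and Cct7 bind ATP tightly, while Tcp1, Cct3, Cct6a and Cct8 bind it weakly.

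Every subunit gene lay lower in REL on average, by 0.10 to 0.46 on the log2 scale, although Cct7 and Cct8 turned to 0.01 and 0.07 with each array centred on its median, and none passed the test. The median log2 difference over the 8 genes was −0.29, a ratio of 0.817, beside −0.07 over all genes tested. Cct6a had the largest difference and Cct8 the smallest. With 8 of 8 differences below 0, the share over all genes was 56.8%, and it was 63.9% over the 734 genes of the same brightness range, whose median was −0.07. In limma, 0 of the 8 were called at an adjusted p under 0.05, where 0.00828% of all genes (1, Vcam1) were called higher and 0 (0%) lower. At an unadjusted p under 0.05 there was 1 subunit gene lower, Cct6a, where 4.99% of all genes (603) lay lower.

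The promoter windows of 3 members are shown because they belong to the largest difference (Cct6a), to the first-named subunit of the complex (Tcp1) and to the smallest difference (Cct8). Each is the RefSeq window from 250 bases before to 50 after the start, on GRCm38.p6, read 5′ to 3′ on the gene's strand, with GC boxes (GGGCGG) and CCAAT boxes (CCAAT), on either strand, in capitals. The windows are chr5:129787106-129787405 on the plus strand for Cct6a, chr17:12916079-12916378 on the plus strand for Tcp1 and chr16:87495820-87496119 on the minus strand for Cct8.
Cct6a: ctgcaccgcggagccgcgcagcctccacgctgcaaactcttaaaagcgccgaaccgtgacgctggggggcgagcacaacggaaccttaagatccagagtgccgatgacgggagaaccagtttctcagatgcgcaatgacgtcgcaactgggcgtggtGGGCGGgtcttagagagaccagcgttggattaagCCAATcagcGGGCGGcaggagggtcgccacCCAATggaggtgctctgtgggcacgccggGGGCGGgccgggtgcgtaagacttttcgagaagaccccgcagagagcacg
Tcp1: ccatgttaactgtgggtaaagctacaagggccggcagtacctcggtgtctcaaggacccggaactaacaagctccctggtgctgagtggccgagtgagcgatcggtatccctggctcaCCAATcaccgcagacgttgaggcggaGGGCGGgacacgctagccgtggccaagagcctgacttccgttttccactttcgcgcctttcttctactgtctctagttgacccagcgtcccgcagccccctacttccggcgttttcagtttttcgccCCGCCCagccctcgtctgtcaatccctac
Cct8: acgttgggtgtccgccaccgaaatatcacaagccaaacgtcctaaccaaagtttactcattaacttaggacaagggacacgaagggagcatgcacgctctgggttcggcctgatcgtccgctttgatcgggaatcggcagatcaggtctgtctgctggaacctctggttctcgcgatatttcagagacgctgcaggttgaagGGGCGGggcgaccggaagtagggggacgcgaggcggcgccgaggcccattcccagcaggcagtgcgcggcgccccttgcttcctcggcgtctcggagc

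The Cct6a window held 3 GC boxes and 2 CCAAT boxes, that of Tcp1 2 and 1, and that of Cct8 a single GC box, and none of these matches overlapped another. Across the members, 7 genes had 9 windows, and Cct4 had none. A GC box stood in 8 of the 9 windows, in at least 1 for each of the 7 genes, where 35.7% of all 32851 windows held one. The 9 windows had 47.3% to 67.7% of G and C bases, beside a median of 52.7% over all windows. The share was not matched for this composition, on which matches to GGGCGG depend. A CCAAT box stood in the windows of Cct3, Cct6a, Cct7 and Tcp1 (37.4% of all windows). The E-box CACGTG, the site of MYC and related factors, was in 0 of the 9 (7.15% of all windows). The NF-kB consensus, the kind of site c-Rel binds, was also in 0 (4.51%). With shares this low, 9 windows are too few to read anything from a count of 0. The core of the heat shock element, GAANNTTC, was in 1 window of Cct2 (7.86%). These are matches of letters only, and no binding was measured.

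Signals are MAS5 values on a linear scale, each array scaled by itself to the same trimmed mean of 500, and are compared only within a probe set. Differences are of log2(signal + 16), REL minus WT, with n = 3 WT and n = 2 REL. In these whole-sample data a smaller share of cells with high levels and less RNA per cell cannot be told apart.

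**Figure D1:**
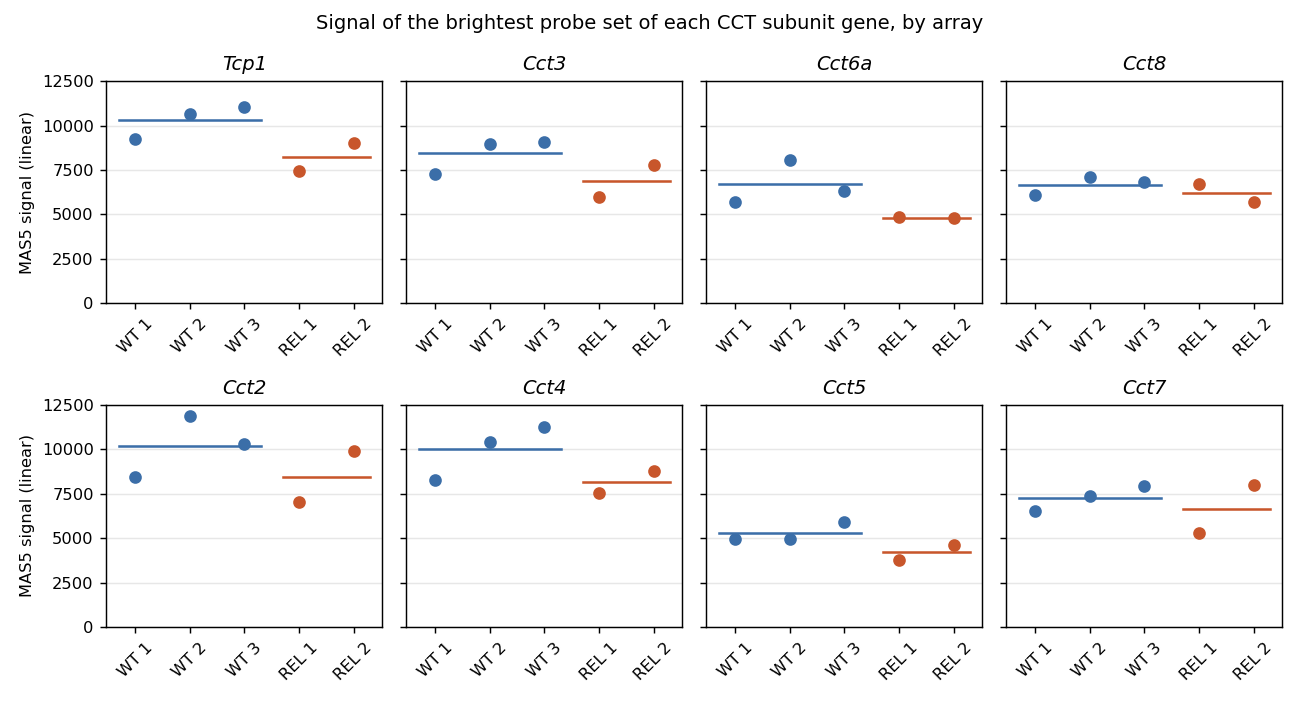
MAS5 signal (linear, from 0) of the brightest probe set of each CCT subunit gene on the 3 WT arrays (blue) and the 2 REL arrays (orange), with a line at each group's mean. For Tcp1, Cct6a and Cct5 both orange points lie below every blue point, and for the other 5 genes the groups overlap.

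Gene positions are from RefSeq on GRCm38.p6. Among the subunits that bind ATP weakly, Cct6a, on chromosome 5 (129787356 to 129846443), encodes the zeta subunit. Its signals were 5699, 8053 and 6337 in WT against 4860 and 4794 in REL. Both REL values were under all 3 WT values and close to each other, while WT replicate 2 stood above the other WT arrays. The log2 difference was −0.46 (SE 0.18, 95% interval −0.86 to −0.05), a ratio of 0.729, with a limma adjusted p of 0.544. Its second probe set, with signals of 5251 to 6534 in WT against 3678 and 4279 in REL, showed the same separation at −0.54 (SE 0.18).

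Tcp1, on chromosome 17 (12916329 to 12925067), encodes the alpha subunit, the first of the family to be described. Its single probe set read 9245, 10637 and 11016 in WT against 7446 and 9012 in REL. The REL arrays were the lowest of the 5, with REL replicate 2 just under WT replicate 1. The difference was −0.33 (SE 0.15), a ratio of 0.798 (95% interval 0.636 to 1.00), with a limma adjusted p of 0.611.

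Cct3, on chromosome 3 (88297135 to 88321766), encodes the gamma subunit. Its brightest probe set read 7276, 8985 and 9074 in WT against 5989 and 7764 in REL. REL replicate 1 was the lowest array, and REL replicate 2 lay above WT replicate 1, so the groups overlapped. The difference was −0.30 (SE 0.17, 95% interval −0.68 to 0.08), with a limma adjusted p of 0.705. Of 7 probe sets for this gene, 4 had signals over 500 on every array, and the other 3 of these stood at −0.62, −0.46 and −0.32. At −0.62 (SE 0.16) the probe set with 6237, 7170 and 6793 in WT against 4072 and 4707 in REL had the largest difference among the bright CCT probe sets. Its limma adjusted p in the fit over all probe sets was 0.366. The sets at −0.62 and −0.32 carry the suffix _s_at, which marks probes shared by several transcripts. The set at −0.46 carries _x_at, which marks probes that can match other transcripts. The brightest set, at −0.30, has neither suffix.

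Cct8, on chromosome 16 (87483325 to 87495869), encodes the theta subunit. Its signals were 6081, 7082 and 6799 in WT against 6724 and 5705 in REL. REL replicate 1 lay inside the WT range, and REL replicate 2 was the lowest array, the reverse of the order in most other subunits. The difference was −0.10 (SE 0.16, 95% interval −0.45 to 0.25; limma adjusted p = 0.925).

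Among the subunits that bind ATP tightly, Cct5, on chromosome 15 (31590800 to 31601846), encodes the epsilon subunit. It read 4952, 4951 and 5912 in WT against 3799 and 4594 in REL, with both REL values under all 3 WT values. The difference was −0.33 (SE 0.18, 95% interval −0.73 to 0.07), a ratio of 0.796, and the limma adjusted p was 0.692.

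Cct4, on chromosome 11 (22990593 to 23003336), encodes the delta subunit. It read 8278, 10410 and 11275 in WT against 7564 and 8774 in REL. REL replicate 2 lay above WT replicate 1, so the groups overlapped. The difference was −0.28 (SE 0.16; limma adjusted p = 0.708) by the brightest probe set, whose suffix _x_at marks probes that can match other transcripts. The brightest set without that suffix or _s_at, which marks probes shared by several transcripts, gave −0.11 (SE 0.17), over 1.5 times nearer to 0. This choice of probe set was made after seeing the data.

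Cct2, on chromosome 10 (117050997 to 117063852), encodes the beta subunit. Its signals were 8410, 11859 and 10294 in WT against 7038 and 9882 in REL. REL replicate 1 was the lowest array, and REL replicate 2 lay among the WT arrays. The difference was −0.27 (SE 0.19, 95% interval −0.70 to 0.15; limma adjusted p = 0.764). It was −0.03 without REL replicate 1 and −0.52 without REL replicate 2. The brightest probe set carries the suffix _x_at, and the brightest without it or _s_at gave −0.23 (SE 0.19). The latter set was chosen after seeing the data.

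Cct7, on chromosome 6 (85451505 to 85468477), encodes the eta subunit. It read 6505, 7375 and 7937 in WT against 5270 and 7983 in REL. The REL arrays were the lowest and the highest of the 5, so that they enclosed every WT array. The difference was −0.16 (SE 0.19, 95% interval −0.59 to 0.27; limma adjusted p = 0.892), and it was 0.14 without REL replicate 1 and −0.46 without REL replicate 2.

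**Figure D2:**
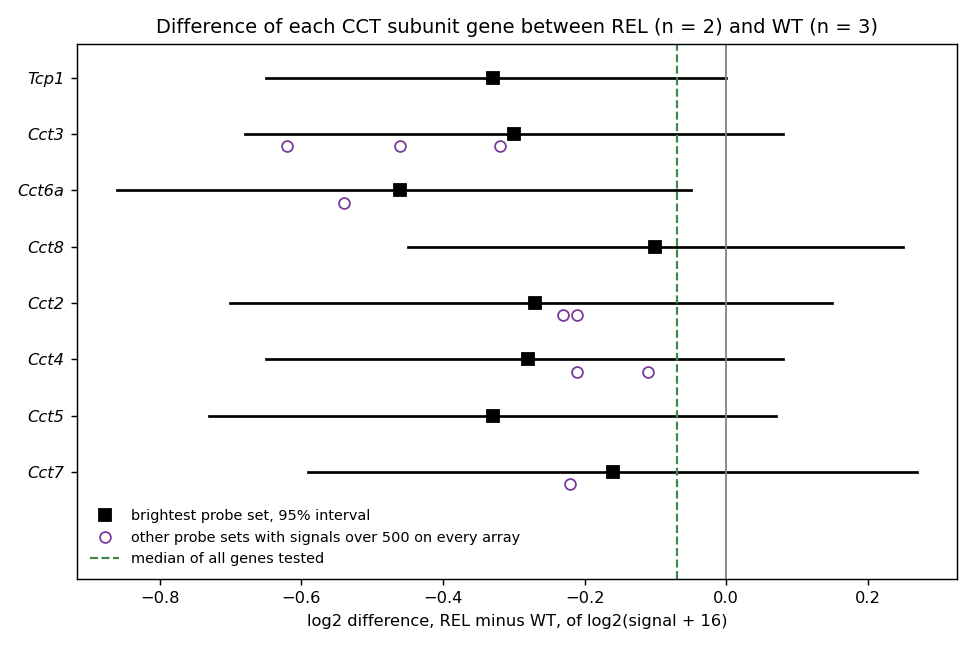
Log2 difference (REL minus WT) of each CCT subunit gene. Black squares with bars are the brightest probe set and its 95% interval from limma, open circles are the gene's other probe sets with signals over 500 on every array, and the dashed line is the median of all genes tested (−0.07). Every symbol lies left of 0 (with median centring those of Cct7 and Cct8 stand at 0.01 and 0.07), and only the bar of Cct6a ends below 0.

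The 8 genes had 25 probe sets. After their values were seen these fell into 17 bright ones, with signals of 903 to 11859, and 8 dim ones that stayed at 454 or below on every array. All 8 members entered the test through bright probe sets that were high in both groups. The 17 bright probe sets had differences of −0.62 to −0.10, with a median of −0.28. In 6 of the 17, from Tcp1, Cct3, Cct5 and Cct6a, both REL values were under all 3 WT values, and in 0 both lay above. Those of Cct3 among the 6 carry _s_at or _x_at. Over all probe sets tested the share with both REL arrays below was 13.5%. Probe sets of 1 gene share its RNA and are not independent. The 8 dim ones, which measure Cct3, Cct4 and Cct8 beside brighter sets of the same genes, ran from −1.30 to 0.35, and 2 of the 8 did not pass the filter on low signals.

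Both REL values were under all 3 WT values for 3 of the 8 genes (Tcp1, Cct5 and Cct6a), where this held for 14.3% of all genes and for 17.6% of those in the same brightness range. The count was 7 without WT replicate 1 (23.9% of all genes), 7 without REL replicate 2 (31.2%), 4 without REL replicate 1 (34.7%), 5 with quantile normalization (14.4%), 5 with probe sets averaged per gene (13.9%) and 0 with each array centred on its median (7.41%). The median used for centring is that of all probe sets. It lay at signals of 30.1 to 54.6 on the 5 arrays, far below those of the subunit genes. With centring the SE rose from 0.15 to 0.31 for Tcp1 and from 0.19 to 0.35 for Cct2. Centring put the all-gene median at 0.10 in place of −0.07. Relative to the all-gene median the subunit genes stood at −0.22 both with and without centring. This holds by construction, since centring adds the same shift to every gene. The directions of Cct7 and Cct8 turned with centring, to 0.01 and 0.07.

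The arrays of the same group differed in the RNA level of most subunits together. Relative to the WT mean, the median of the 8 genes stood at −0.18, 0.08 and 0.11 on WT replicates 1, 2 and 3, and at −0.46 and −0.18 on REL replicates 1 and 2. REL replicate 1 was the lowest, and REL replicate 2 stood level with WT replicate 1. The median of all genes on the same arrays was −0.05, 0.01, 0.06, −0.03 and −0.09. For the germinal centre B cell markers given further on it was −0.18, 0.13, 0.06, −0.22 and −0.0. For the actin list it was −0.20, 0.16, 0.04, −0.12 and −0.0. The phosducin-like co-chaperones differed, at 0.14, 0.01, −0.15, 0.26 and −0.26. The WT order was thus not particular to the CCT subunits. REL replicate 1 lay below every WT array for 7 of the 8 genes, all but Cct8 (31.2% of all genes), and REL replicate 2 for 4 of the 8 (34.7% of all genes). Without REL replicate 1 the median difference of the subunit genes was −0.18, or −0.09 relative to all genes, and without REL replicate 2 it was −0.46, or −0.43 relative to all genes. Without REL replicate 1 Tcp1 and Cct5 each stood at −0.19, Cct4 at −0.17 and Cct3 at −0.11, while Cct6a stayed at −0.47. The size of the difference thus rested mainly on REL replicate 1, except for Cct6a, which both REL arrays gave alike, and Cct8.

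The subunits also parted from one another within the REL arrays. Between the lowest and the highest subunit the log2 deviations spanned 0.18, 0.37 and 0.25 over the WT arrays against 0.54 and 0.60 over the REL arrays. On REL replicate 1 the 7 genes other than Cct8 lay between −0.52 (Cct2) and −0.39 (Cct4), with Cct8 apart at 0.02. On REL replicate 2 Cct6a lay lowest at −0.47, Cct8 stood at −0.22 and Cct7 was highest at 0.14. WT deviations are taken from a mean that includes the array itself, which narrows their span, and the difference in span was not tested.

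**Figure D3:**
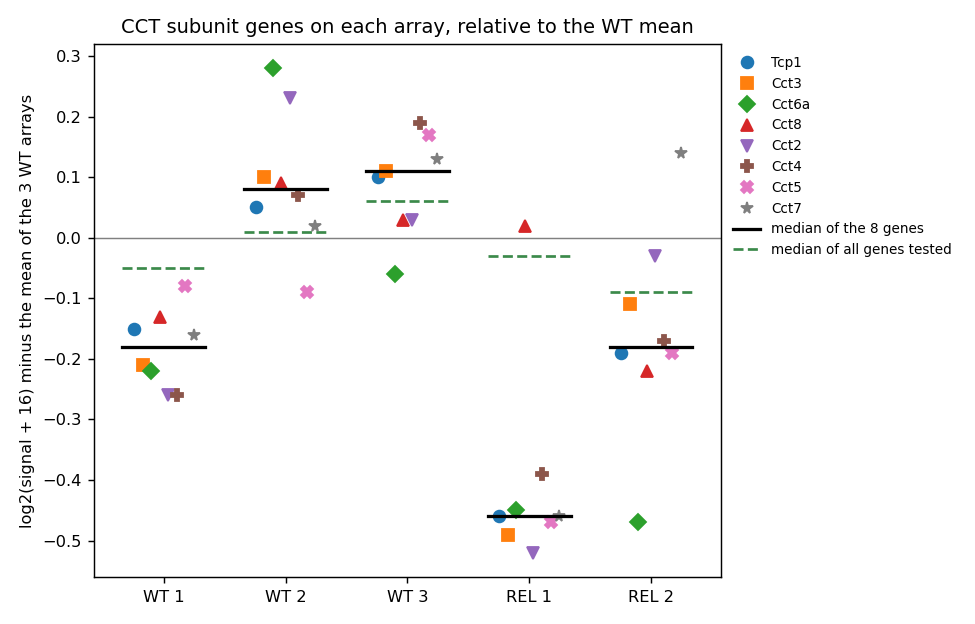
Log2(signal + 16) of each CCT subunit gene on each array minus its mean over the 3 WT arrays, with the median of the 8 genes (black line) and of all genes tested (dashed green line). On REL 1 every subunit but Cct8 lies between −0.52 and −0.39, and on REL 2 they spread from −0.47 to 0.14.

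The likeness of profiles was measured as the root-mean-square (RMS) difference between log2 profiles over the 5 arrays, each gene taken around its own mean. Tcp1 and Cct3 were the closest pair of subunits (0.0468), and Cct6a and Cct7 the least alike (0.284). From the mean profile of the 8 genes, Tcp1 differed by 0.0355 and Cct8 by 0.179, while a flat profile would differ by 0.186. By nearness among all genes tested, Tcp1 held place 11, Cct3 20, Cct4 51 and Cct5 303. Cct2 held place 354, Cct7 603, Cct6a 1000 and Cct8 1251, although each subunit is part of that mean. The 5 other genes nearest to the mean profile were Pgk1 (0.0168), Atp5b (0.0181), Tpi1 (0.0227), Fam234b (0.0232) and Atp5c1 (0.0237). These are descriptions over 5 arrays.

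The genes that work with CCT did not share a single direction, and no member of their lists was called. With each array centred on its median, the list medians turned to 0.05 for prefoldin, 0.09 for actin, 0.11 for tubulin, 0.01 for the tubulin cofactors and 0.05 for the proliferation genes given further on, while the CCT subunits stood at −0.12 and the propeller-shaped substrates at −0.05. With quantile normalization the actin and tubulin lists were both at 0.04 and the CCT subunits at −0.20. Prefoldin, which carries unfolded actin and tubulin to CCT, had 4 of 6 subunit genes below 0 and a median of −0.12. Pfdn4 read 1595, 1370 and 1477 in WT against 799 and 619 in REL, with the groups separate (−1.05, SE 0.30, limma adjusted p = 0.4). Pfdn2 read 869, 465 and 333 in WT against 1574 and 1094 in REL, so that the groups were separate in the opposite direction (1.33, SE 0.45, limma adjusted p = 0.46). Pfdn1 was at 0.27 (SE 0.27) and at −0.16 without REL replicate 2. The phosducin-like co-chaperones, which bind CCT and steer its substrates, stood at 0.15 over 3 tested genes. Txndc9 was at 0.16, Pdcl at 0.15 and Pdcl3 at −0.05 (0.12 with centring). For Txndc9 1 of 3 tested probe sets, and for Pdcl 1 of 2, had the opposite sign. Without REL replicate 1 Pdcl stood at −0.26, and without REL replicate 2 Pdcl3 stood at 0.26.

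The main substrates are actin and tubulin. The actin list had a median of −0.08 over 3 genes, with Actr3, an Arp2/3 subunit, at −0.11, Actb at −0.08 and Actg1 at 0.01 (−0.12 without REL replicate 2). With centring Actr3 and Actb stood at 0.06 and 0.09. For Actb 1 of 2 tested probe sets had the opposite sign. Of 8 tubulin genes 5 lay below 0, with a median of −0.06. Tubb2b, a beta tubulin, read 1009, 1584 and 1206 in WT against 2340 and 3667 in REL, with both REL values over all 3 WT values (1.22, SE 0.30, limma adjusted p = 0.337). Tuba4a, an alpha tubulin, read 7882, 8929 and 9966 in WT against 6966 and 5465 in REL, separate in the other direction (−0.52, SE 0.17, limma adjusted p = 0.43; 1 of its 3 probe sets had the opposite sign). Tubb4b was at −0.22 (SE 0.19), and at 0.04 without REL replicate 1. The tubulin folding cofactors, which take tubulin from CCT and pair its chains, had 5 of 5 genes below 0 and a median of −0.16, with Tbcc at −1.07 (SE 0.64), Tbce at −0.16 and Tbca at −0.13. With centring Tbce and Tbca stood at 0.01 and 0.04.

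Propeller-shaped substrates had a median of −0.22 over 7 tested genes, 5 of them below 0. Cdc20, the activator of the anaphase-promoting complex, read 4525, 4476 and 5182 in WT against 2905 and 4397 in REL (−0.40, SE 0.21, limma adjusted p = 0.686). As in most CCT subunits REL replicate 1 was the lower array, and without it the difference was −0.10. The G protein subunit gene Gnb2 was at 0.31 and the phosphatase subunit gene Ppp2r2a at −0.22 (0.01 without REL replicate 1). For Ppp2r2a 1 of 3 tested probe sets had the opposite sign. Of 4 other substrates, Hdac3, a histone deacetylase, was at −0.32, the mitotic kinase gene Plk1 at −0.09 and the cyclin gene Ccne1 at 0.11, each with an SE of 0.35 to 0.52. Without REL replicate 1 Plk1 turned to 0.24 and Ccne1 to −0.62, and Plk1 stood at 0.08 with centring. For Ccne1 1 of 2 tested probe sets had the opposite sign.

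The mitochondrial chaperonin is the relative of CCT that folds proteins in the organelle. Its ring gene Hspd1 read 5370, 5823 and 4332 in WT against 3088 and 4029 in REL, with both REL values under all 3 WT values (−0.54, SE 0.20, limma adjusted p = 0.503). The gene of its lid, Hspe1, was at −0.05 (SE 0.19), at 0.12 with centring and at 0.13 without REL replicate 1. For Hspe1 1 of 2 tested probe sets had the opposite sign. Of the CCT-like genes, Bbs12, Bbs10 and Mkks, which encode assembly factors of the BBSome, were at −0.85 (SE 0.58), −0.56 (SE 0.65) and 0.08 (SE 0.36). Without REL replicate 1 Bbs10 and Mkks turned to 0.15 and −0.03. For Mkks 1 of 2 tested probe sets had the opposite sign. Cct6b, the testis form of the zeta subunit, and Cct8l1 did not pass the filter on low signals.

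**Figure D4:**
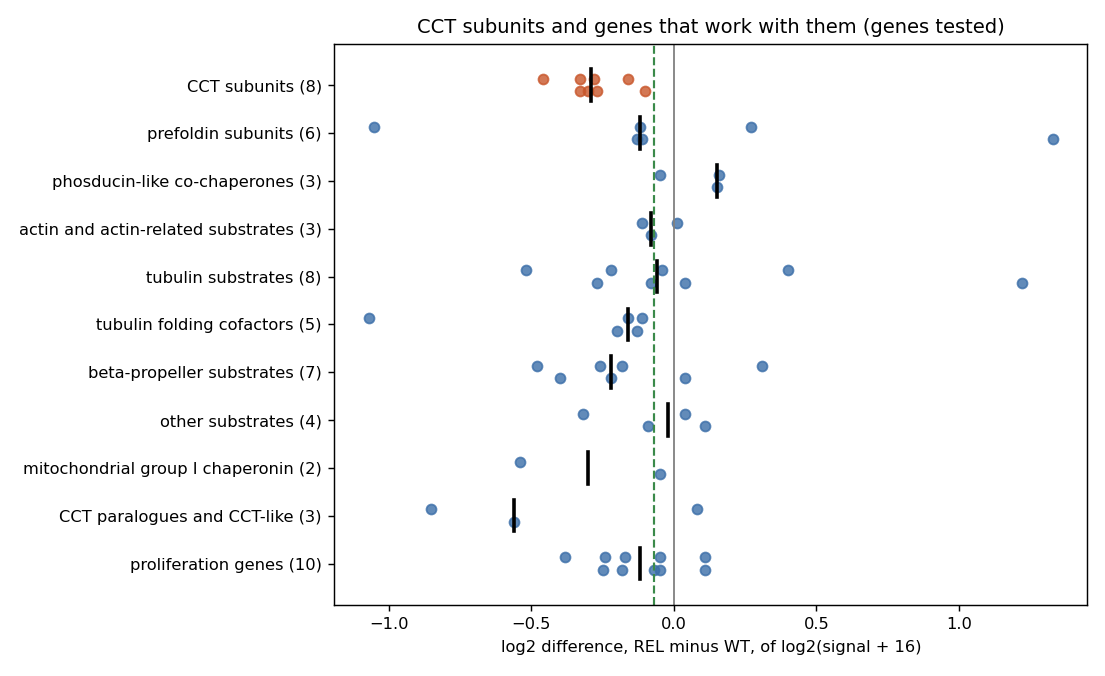
Log2 difference (REL minus WT) of each tested gene in the CCT subunit list (orange) and in the lists of genes that work with CCT, the related chaperonins and proliferation (blue). Black bars are list medians, the dashed line is the median of all genes (−0.07), and the number of genes tested is in parentheses. The subunits lie within −0.46 to −0.10, while prefoldin and tubulin genes spread to both sides of 0.

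Proliferation genes had a median of −0.12 over 10 tested genes, 8 of them below 0. The replication helicase genes Mcm6, Mcm7 and Mcm5 were at −0.38 (SE 0.17), −0.25 (SE 0.18) and −0.24 (SE 0.15), with limma adjusted p of 0.601 to 0.773, and Mcm7 was at 0.03 without REL replicate 1. Array by array the proliferation level was −0.12, 0.04 and 0.09 for WT against −0.19 and 0.03 for REL, against −0.18, 0.08, 0.11, −0.46 and −0.18 for the CCT subunits.

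Rel, the gene with loxP sites, read 492, 134 and 206 in WT against 18.6 and 85.2 in REL, though the position of its probe set relative to the deleted part is not given in the sources used here. Germinal centre B cell markers were bright in both groups, led by Ms4a1, Cd79b and Bcl6. Their summed signals, set mostly by the brightest genes, were 53673 to 66198 in WT against 53140 to 58384 in REL. By gene, 6 of the 8 tested lay below 0 (median −0.10), and 2 with centring (median 0.07). Rgs13, named after its values were seen, read 4960, 6058 and 6022 in WT against 4514 and 3321 in REL (−0.54, SE 0.19, limma adjusted p = 0.483). It alone of the 8 had both REL values under all 3 WT values (14.3% of all genes). The 15 macrophage markers summed to 1360 to 1921 in WT against 6068 and 6404 in REL. Taken with no filter on low signals, both REL values were over all 3 WT values in 10 of the 15, where this held for 8.06% of all 18193 genes, and under them in 1, Adgre1, named after its values were seen (154, 435 and 161 in WT against 120 and 116 in REL). The brightest over the 5 arrays were Mpeg1 at 1.12, Cd68 at 0.37 (−0.49 without REL replicate 2) and Lyz2 at 3.08. Vcam1, another of the markers, named because it was the only gene called, read 0.833 to 2.46 in WT against 671 and 390 in REL. Summed T cell markers were at 207 to 491 in WT against 809 and 272 in REL, neutrophil markers at 154 to 1325 against 405 and 104, and erythroid markers at 30.6 to 73.7 against 31.0 and 17.6. The middle 18S ribosomal RNA probe set read 8696 to 9822 in WT against 11953 and 13417 in REL. The 5′ probe set of the same RNA read 293 to 858 in WT against 1671 and 1984 in REL. The 3′ to 5′ signal ratio of Actb was 1.58 to 2.45 in WT against 1.64 and 1.73 in REL. The part of the macrophage markers and of ribosomal RNA in the CCT values was not tested.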

How the data were processed

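Total RNA (about 10 ng a sample) was amplified, labelled with biotin and hybridized to 1 array per sample, per the labels' protocols. The authors deposited MAS5 signal intensities for 45101 probe sets on each of 5 arrays. The submitters' processing notes name MAS5, with no version. Small input and the mismatch correction of MAS5 make low intensities noisy, and the number of arrays limits the precision.

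Signals were used as log2(signal + 16), with no normalization between arrays. Of the probe sets, 34958 had 1 platform symbol (13 of them controls, left out), 932 several and 9211 none listed. The lowest 40% by mean log2 value (under about 23.1) were left out, and the brightest probe set of each gene was kept. REL and WT were compared in limma 3.58.1 (R 4.3.3; mean-variance trend, 3 residual and 6.84 prior degrees of freedom, two-sided), adjusted by Benjamini-Hochberg over 12081 genes. The code was tested on simulated data. Members and lists were chosen with earlier results of these data known.

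All 8 members were named with every probe set, as were the 3 genes of each pathway list with the smallest p, the brightest markers and the 5 nearest profiles. Of the members, 8 matched RefSeq genes by Entrez identifier. Alternatives were other pseudocounts (1, 64), filters (none, 60%), quantile normalization, median centring, the mean of probe sets, all probe sets, no trend, the replicate number as a block, each array left out and, chosen after seeing the data, no _s_at or _x_at probe sets. Python 3.11.15 with pandas 2.3.3 and matplotlib 3.10.9 made tables and plots.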

Additional observations from a re-analysis of the deposited data

How the results depend on the processing

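Leaving out settings that return the same difference by construction, 96 of 102 alternative values of the 8 subunit genes kept their direction. Under no alternative was one called (limma adjusted p 0.333 to 1). The 102 include pseudocounts of 1 and 64, which can hardly move genes this bright (Cct2 stood at −0.27 with each). They also include 2 values for probe sets without _s_at or _x_at, chosen after seeing the data, which repeat probe sets counted under all probe sets. The count thus overstates how far the directions were tried. The 6 that turned were Cct7 (0.01) and Cct8 (0.07) with median centring, Cct7 without REL replicate 1 (0.14), Cct8 without REL replicate 2 (0.02; −0.22 to 0.02 over the arrays left out), and the dim probe sets of Cct3 (0.02) and Cct4 (0.35). Centring adds the same shift to every gene. With 1 REL array left out the difference is the deviation of the other from the WT mean, 0.14 for Cct7 on REL replicate 2 and 0.02 for Cct8 on REL replicate 1. The cause of the turns in the dim probe sets was not tested. The median of the 8 genes was −0.12 with centring and ran from −0.46 to −0.18 with 1 array left out. Over all genes, limma called 1 higher and 0 lower (603 lower at an unadjusted p under 0.05). It called 0 higher with a pseudocount of 1 or 64, no filter, the 60% filter, the mean of probe sets, all probe sets or no trend, 3 with centring, and 0 to 3 with 1 array left out. Lower calls were 1 with quantile normalization and 0 to 5 with 1 array left out. With the replicate block there were 10 higher and 8 lower calls and a CCT median of −0.24. Deviations of same-numbered arrays correlated at −0.0417 and −0.0183 across genes. With 2 REL arrays their deviations mirror each other, so these values cannot show whether same-numbered arrays shared a batch. Fits without a REL array rest on 1 REL sample, assumed to vary like the WT arrays, and they kept the probe sets chosen with all 5. Dim probe sets limit what Cct3 and Cct4 show beyond their bright ones.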
